A study of Mus musculus with 13 samples.

Results

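The genes described here are 10 members of the mouse Notch pathway, taken by gene symbol from a table of 30332 genes. They are the receptors Notch1, Notch2 and Notch3, the ligands Dll1, Dll3, Jag1 and Jag2, and the target genes Hes1, Hes5 and Hey1, and 10 of 10 were in the table. They were measured by RNA-seq in a study of the conversion of fibroblasts into neural stem cells by chemicals, in 9 cell populations that all carried a Nestin::GFP transgene. In that transgene, green fluorescent protein marks cells that use the Nestin gene, which encodes an intermediate filament of neural progenitors.

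The sorted GFP+ libraries of days 4 and 8 (GFP+ D4 and GFP+ D8) and the sorted GFP- libraries of the same days (GFP- D4 and GFP- D8) came from mouse embryonic fibroblasts treated with VCR. VCR is a mixture of valproic acid, CHIR99021 and RepSox, which inhibit histone deacetylases, the kinase GSK3 and the type I TGF-beta receptor. Unsorted fibroblasts were sequenced before VCR (D0) and after 1 and 2 days of it (D1 and D2). The GF library held sorted GFP+ cells from fibroblasts given growth factors and no VCR, starting with 2 days of IL6 (50 ng/ml). FGF5 (50 ng/ml) and LIF (100 ng/ml) followed over 4 days, and EGF with bFGF (20 ng/ml of either) came last. The NSC library held sorted GFP+ primary neural stem cells. The fibroblasts were isolated from E13.5 embryos, and the labels give passage 3 for all 9 populations. A GFP gate selects cells by a reporter of the Nestin gene, which is used outside the nervous system too, and the sources used here name no strain and no number of embryos.

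Notch receptors are single-pass membrane proteins that are activated by Delta-like and Jagged ligands on neighbouring cells. Ligand binding lets an ADAM protease and then gamma-secretase cut the receptor, and the freed intracellular domain joins the DNA-binding protein RBPJ and a Mastermind coactivator on target genes such as those of the Hes and Hey families. Hes and Hey proteins are basic helix-loop-helix repressors, and in the embryonic brain Hes1 and Hes5 hold back proneural genes and keep progenitors undifferentiated.

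Each population was 1 library, so there were no replicates, no p-value or SD could be given, and every difference below compares libraries. Levels are CPM, a gene's counts divided by its library's total and scaled to 1000000, and the totals lay between 20104940 and 36751356 estimated counts. CPM is not corrected for gene length, so levels of different genes are not compared. Folds are ratios of CPM with exact 95% intervals, which cover counting error only and not the spread between separate cultures. A gene counted as higher or lower, here named a call, when its log2(CPM + 1) differed by 1 or more (2-fold) and at least 1 of the 2 libraries reached 5 CPM. A gene under 5 CPM in 1 of the 2 libraries is thus tested only through the other, where it is higher. In bulk RNA, fewer cells of a type and less RNA per cell cannot be told apart. D0 is shared by 8 comparisons, D0 was not sorted, and the series has no untreated library at a later time, so VCR, time in culture and sorting cannot be told apart in comparisons with D0. The fibroblast markers summed to 13851 CPM in D0, with 8 of 8 at 1 CPM or more, and all 8 neural stem markers were at 1 CPM or more in NSC, with a sum of 1043 CPM. In NSC the neuron markers summed to 2789 CPM, the mural markers to 645 CPM and the macrophage markers to 339 CPM. The GF library held 16152 CPM of fibroblast markers and 104 CPM of neural stem markers.

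**Figure D1:**
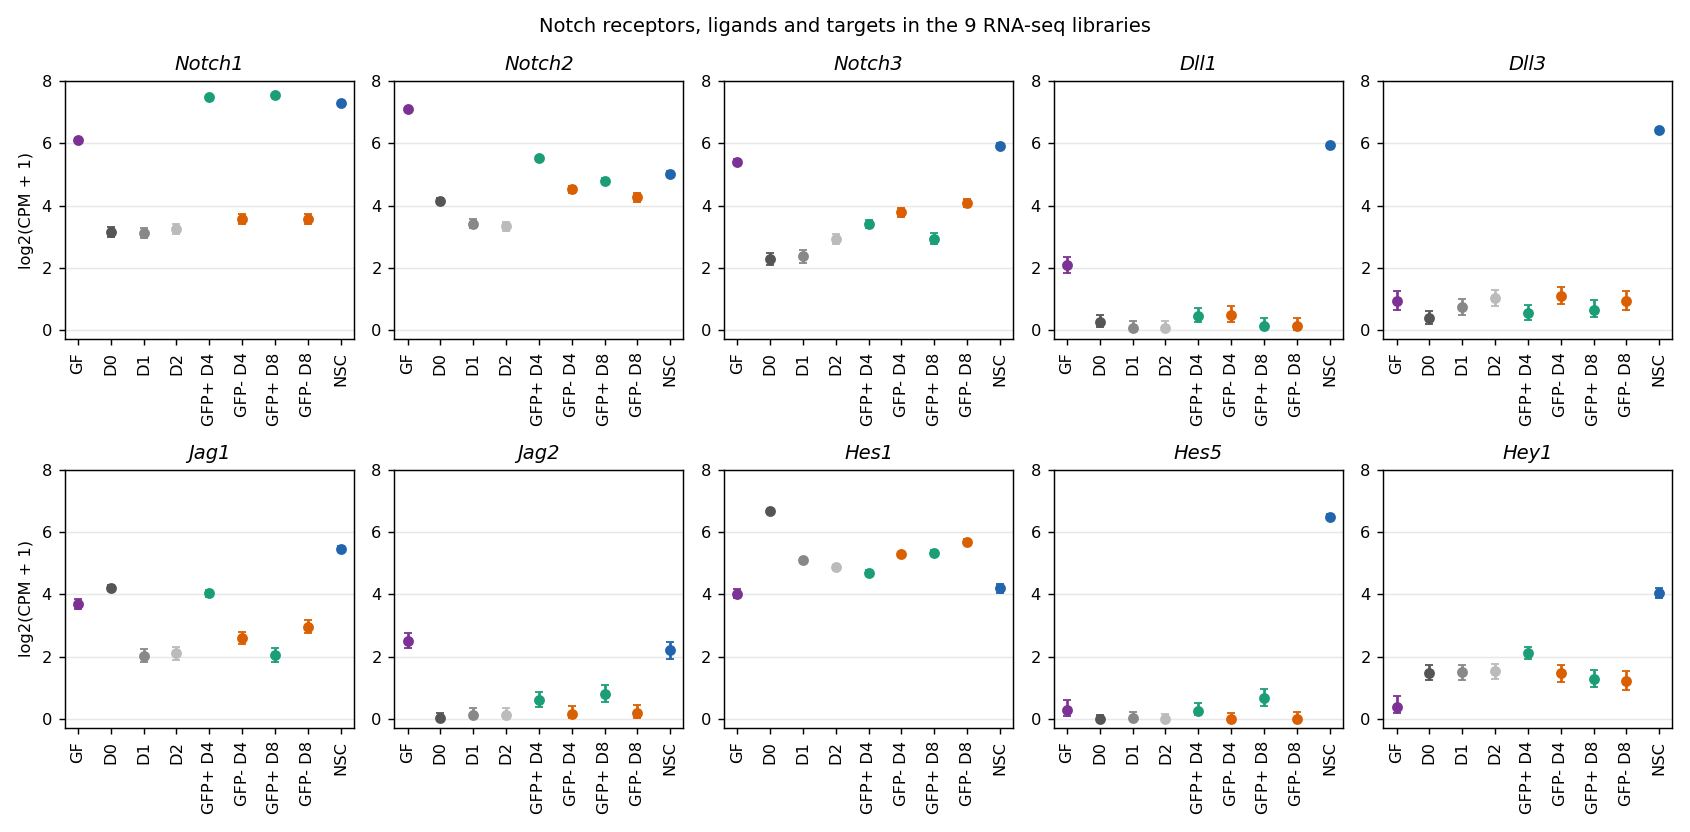
Level of each of the 10 genes as log2(CPM + 1) in the 9 RNA-seq libraries, 1 point a library, with exact Poisson 95% intervals for counting error; GFP+ libraries of D4 and D8 are green and GFP- libraries orange. Notch1 stands apart in the GFP+, GF and NSC libraries, Dll1, Dll3 and Hes5 stand high in NSC alone among the 9, and Hes1 is highest in D0.

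Among the receptors, Notch1 differed most between the sorted fractions. Notch1, the receptor most studied in neural progenitors, lies at chr2:26457902-26503822 in GRCm38.p6. It had 179 and 187 CPM in GFP+ D4 and GFP+ D8, against 10.9 and 10.9 CPM in GFP- D4 and GFP- D8. D0, D1 and D2 held 7.92, 7.70 and 8.52 CPM, while GF held 68.3 CPM and NSC 154 CPM. The GFP+ libraries were thus the highest of the 9 and lay above NSC, and the GFP- libraries lay near the unsorted fibroblasts. Between the fractions the ratio was 16.4-fold (95% interval 14.6 to 18.5) at D4 and 17.2-fold (15.2 to 19.6) at D8. Ordered by log2 difference, Notch1 was in place 111 of 11360 genes tested at D4 and in place 107 of 11351 at D8. Against D0 it was 22.6-fold higher in GFP+ D4 (20.1 to 25.5), 23.7-fold in GFP+ D8 (21.0 to 26.7), 8.62-fold in GF (7.60 to 9.81) and 19.5-fold in NSC (17.3 to 22.1). The intervals of GFP+ D8 and GFP+ D4 overlapped, as did those of GFP- D4 and GFP- D8 and those of D0, D1 and D2. The ratio of D8 to D4 was 1.05 (1.01 to 1.09) in GFP+, slightly beyond counting error. In GFP- it was 0.999 (0.842 to 1.19). In D1 and D2 the log2 difference of Notch1 from D0 was -0.04 and 0.09.

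The RefSeq promoter of Notch1 is given because it belongs to the member that differed most between the fractions; the window runs from 250 bases before to 50 after the annotated start, at chr2:26503773-26504072 on the minus strand of GRCm38.p6, and is written 5′ to 3′ along the gene.
Notch1: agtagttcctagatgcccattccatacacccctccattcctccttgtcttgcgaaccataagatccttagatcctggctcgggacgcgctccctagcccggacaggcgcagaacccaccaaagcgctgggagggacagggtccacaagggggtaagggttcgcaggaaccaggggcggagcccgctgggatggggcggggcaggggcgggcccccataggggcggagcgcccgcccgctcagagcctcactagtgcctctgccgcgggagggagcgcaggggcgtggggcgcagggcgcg

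The Notch1 difference went with differences in markers of cell identity between the same libraries. The list of neural crest and Schwann cell markers summed to 2390 and 2721 CPM in GFP+ D4 and GFP+ D8, against 42.8 and 55.1 CPM in GFP- D4 and GFP- D8, with 7 of 8 markers at 1 CPM or more in each of the 4 libraries. Neural stem markers summed to 884 and 862 CPM in the GFP+ libraries, of which Nes made up 784 and 721 CPM, against 30.9 and 41.2 CPM in the GFP- libraries. The fractions were sorted by a reporter of Nes, so its difference between them is no independent sign of cell identity. Sox2, a transcription factor gene of neural progenitors, had 84.0 and 130 CPM in GFP+ D4 and GFP+ D8, against 2.52 and 7.27 CPM in GFP- D4 and GFP- D8. Fabp7, a fatty acid binding protein gene of radial glia, had 12.3 and 5.92 CPM in the GFP+ libraries, against 1.10 and 0.298 CPM in the GFP- libraries, and Sox1 was under 1 CPM in all 4. Macrophage markers summed to 243 and 137 CPM in the GFP+ libraries and to 25.7 and 18.6 CPM in the GFP- libraries. Lyz2, a lysozyme gene, made up 185 and 83.5 CPM in the GFP+ libraries, against 14.5 and 7.19 CPM in the GFP- libraries, and Cd68, a lysosomal gene, 47.8 and 45.0 CPM, against 9.73 and 7.36 CPM. Adgre1, a defining macrophage marker, had 4.11 and 2.42 CPM in the GFP+ libraries, against 0.110 and 0.213 CPM in the GFP- libraries, while Aif1 had 0 counts in both GFP+ libraries and in GFP- D4 and 1 count in GFP- D8. Endothelial markers summed to 6.20 and 4.60 CPM in the GFP+ libraries and to 6.71 and 8.44 CPM in the GFP- libraries, and Cdh5 and Cldn5 were under 0.1 CPM in all 4. Fibroblast markers summed to 2413 and 2187 CPM in the GFP+ libraries and to 6398 and 7874 CPM in the GFP- libraries, although Postn was higher in GFP+. Neuron markers summed to 397 and 423 CPM in the GFP+ libraries, against 76.1 and 84.0 CPM in the GFP- libraries. Dcx was under 1 CPM in all 4, and Snap25 was slightly lower in GFP+. The part of these cell types in the Notch1 result was not tested.

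Notch2, a receptor that shares the extracellular repeat structure of Notch1, was highest in GF. It lies at chr3:98013538-98150367 and had 137 CPM in GF, against 31.3 CPM in NSC and 16.7 CPM in D0. D1 and D2 held 9.69 and 9.10 CPM, the lowest levels of the 9 libraries. The sorted VCR libraries lay between D0 and GF, with 44.7 and 26.8 CPM in GFP+ D4 and GFP+ D8, against 22.0 and 18.2 CPM in GFP- D4 and GFP- D8. The ratio of GFP- D8 to D0 was 1.09 (0.959 to 1.23), which is within counting error. Its log2 difference of 0.11 turned to -0.15 with median ratio scaling and -0.23 with TMM scaling. GF exceeded D0 by 8.18-fold (7.50 to 8.94), NSC by 4.36-fold (4.0 to 4.76) and GFP+ D8 by 5.11-fold (4.72 to 5.53). Between the D4 fractions the CPM ratio was 2.03 (1.85 to 2.23) but the difference in log2(CPM + 1) was 0.99, just short of a call, and at D8 the ratio was 1.47 (1.31 to 1.66). GFP+ D4 was called higher than D0 at 2.67-fold (2.43 to 2.94), a call that was lost with median ratio scaling (0.80) and TMM scaling (0.81).

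Notch3, a receptor best known from vascular mural cells and also used by neural progenitors, had the opposite order between the fractions to Notch1. It lies at chr17:32120820-32166896. GFP+ D4 and GFP+ D8 held 9.63 and 6.69 CPM, against 12.8 and 16.0 CPM in GFP- D4 and GFP- D8. GF held 41.6 CPM and NSC 59.8 CPM, while D0, D1 and D2 held 3.89, 4.16 and 6.60 CPM. At D8 the GFP+ library was 2.39-fold lower than the GFP- one (2.00 to 2.85), a call that a pseudocount of 5 took below the mark (-0.84), and at D4 the log2 difference was -0.38. The GFP- libraries were higher than D0, by 3.30-fold at D4 (2.71 to 4.04) and 4.10-fold at D8 (3.37 to 5.01). Notch3 lay under 5 CPM in D0, so its calls against D0 were tested only through the other library. Notch3 was also higher than D0 in GF, by 10.7-fold (8.95 to 12.8), and in NSC, by 15.4-fold (12.9 to 18.4). GFP+ D4 was called higher than D0 at 2.47-fold (2.03 to 3.03), but not with median ratio scaling (0.61), TMM scaling (0.63), a total that leaves out mitochondrial genes, ribosomal protein genes and the 20 most abundant genes (0.97) or a pseudocount of 5 (0.72). Markers of mural cells, which use Notch3, summed to 530 and 578 CPM in the GFP+ libraries, carried by Mcam and Pdgfrb, and to 101 and 181 CPM in the GFP- libraries. Rgs5, a defining mural marker, was at 0.201 and 0.249 CPM in the GFP+ libraries, 0.841 and 1.36 CPM in the GFP- libraries and 163 CPM in NSC. Kcnj8 and Cspg4 were also higher in the GFP- libraries. Kcnj8 had 0.230 and 1.07 CPM in GFP+ D4 and GFP+ D8, against 2.49 and 14.9 CPM in GFP- D4 and GFP- D8. Cspg4 had 7.27 and 3.95 CPM, against 11.9 and 6.76 CPM, and Abcc9 0.686 and 0.326 CPM, against 0.630 and 1.21 CPM. The part of mural cells in the Notch3 levels was not tested.

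The Delta-like ligands were at 1.12 CPM or less in every library treated with VCR and high in NSC. Dll1, an activating ligand that neural progenitors and newborn neurons present to their neighbours, lies at chr17:15367354-15376932. It had 60.0 CPM in NSC, from 1207 counts, against 0.190 CPM in D0, from 7 counts, a ratio of 315 (153 to 786). In GFP+ D4 and GFP+ D8 it had 13 and 3 counts, or 0.374 and 0.104 CPM, and in GFP- D4 and GFP- D8 11 and 2 counts, or 0.402 and 0.0851 CPM. D1 and D2 had 2 counts each. The only library between these and NSC was GF, with 72 counts or 3.25 CPM, which was 17.1-fold above D0 (7.87 to 43.9) and 18.5-fold below NSC (14.6 to 23.8). Dll1 lay below 5 CPM in all libraries but NSC, so no call was possible among the others.

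Dll3, a divergent Delta-like protein that in mice does not activate Notch in neighbouring cells, lies at chr7:28293555-28301785. It had 84.2 CPM in NSC, from 1693 counts, and between 0.309 CPM (D0) and 1.12 CPM (GFP- D4) in the other 8 libraries. The ratio of NSC to D0 was 273 (157 to 565). GFP+ D8 was 146-fold lower than NSC (89.0 to 246), and GF, with 20 counts, was 93.2-fold lower than NSC (60.2 to 153). Unlike Dll1, Dll3 in GF lay inside the range of the VCR libraries, at 0.903 CPM. Neuron markers, Dcx among them at 497 CPM, were high in the same NSC library, and Dcx was at 0.553 CPM or less in the other 8. The part of neurons in the NSC levels of Dll1 and Dll3 was not tested.

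Jag1, an activating Jagged ligand found in many mesenchymal and epithelial tissues, followed a course of its own. It lies at chr2:137081451-137116520. It had 17.4 CPM in D0, 3.09 CPM in D1 and 3.29 CPM in D2. D1 was 5.63-fold lower than D0 (4.57 to 6.99), in place 63 from the lowest of 10532 genes tested, and D2 5.29-fold lower (4.31 to 6.55). At D4 the GFP+ library held 15.4 CPM and the GFP- library 5.05 CPM, and at D8 the GFP+ library held 3.12 CPM and the GFP- library 6.81 CPM. The fractions therefore stood in opposite order on the 2 days, with GFP+ 3.05-fold higher at D4 (2.52 to 3.70) and 2.18-fold lower at D8 (1.68 to 2.86). The D8 difference was -0.92 in log2(CPM + 1), which is not a call, but it reached -1.07 with median ratio scaling, -1.05 with TMM scaling and -1.10 with a pseudocount of 0.1. Within the GFP+ fraction D8 was 4.93-fold lower than D4 (3.94 to 6.24), in place 9 from the lowest of 11106 genes, and within the GFP- fraction the ratio of D8 to D4 was 1.35 (1.07 to 1.71). That the order changed between days was not tested, since each fraction has 1 library a day. The comparisons of D8 with D4 within a fraction were added after the values were seen.

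In GF Jag1 had 12.0 CPM, 0.50 below D0 on the log2 scale, and in NSC it was highest at 43.0 CPM. NSC exceeded D0 by 2.47-fold (2.23 to 2.75), a call that was lost with median ratio scaling (0.74) and TMM scaling (0.25). GFP+ D8 was 13.8-fold lower than NSC (11.1 to 17.3). Jag2, the second activating Jagged ligand, lies at chr12:112907803-112929812 and was low throughout. It had 4.69 CPM in GF and 3.58 CPM in NSC, which did not differ beyond counting error, with a ratio of 1.31 (0.961 to 1.80). GFP+ D4 and GFP+ D8 had 18 and 21 counts, or 0.517 and 0.727 CPM, against 3 counts each, or 0.110 and 0.128 CPM, in GFP- D4 and GFP- D8. The ratios between the fractions were 4.71 (1.38 to 25.0) at D4 and 5.70 (1.70 to 29.8) at D8, below the level at which a call was made. D0 had 1 count, and the ratio of GF to it was 172 (30.3 to 6878).

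**Figure D2:**
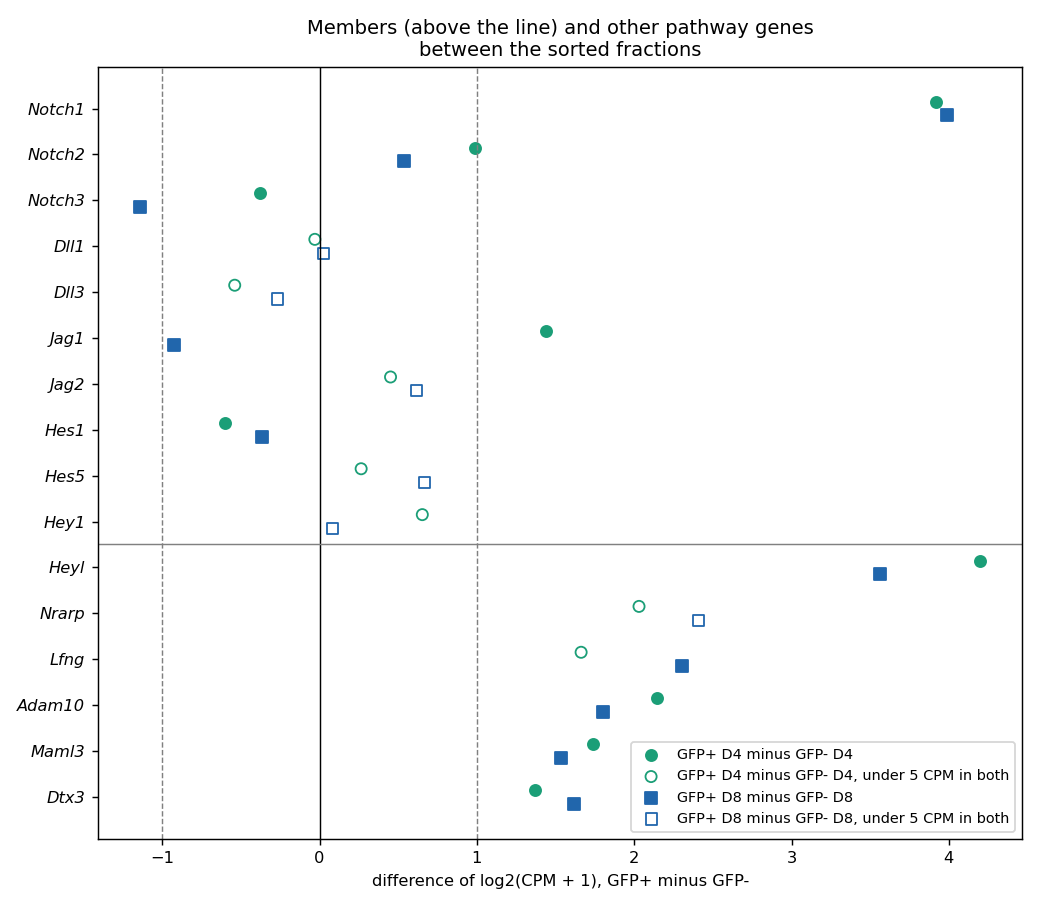
Difference in log2(CPM + 1) between the GFP+ and GFP- libraries for the 10 members and 6 other genes of the pathway, at D4 (circles) and D8 (squares); open symbols mark genes under 5 CPM in both libraries and dashed lines the 2-fold mark. Notch1 and Heyl lie far to the right on both days, and Jag1 lies right of 0 at D4 (1.44) and left of it at D8 (-0.92).

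Hes1, the target that most tissues use in response to Notch and that other signals also control, was highest in D0. It lies at chr16:30065357-30067796. It had 102 CPM in D0, 33.1 CPM in D1 and 28.1 CPM in D2. D1 was 3.08-fold lower than D0 (2.88 to 3.30) and D2 3.63-fold lower (3.37 to 3.90). Hes1 stood at 24.7 and 39.2 CPM in GFP+ D4 and GFP+ D8, against 37.9 and 50.8 CPM in GFP- D4 and GFP- D8. All 8 other libraries thus lay below D0, and the GFP+ libraries lay a little below the GFP- libraries on both days, by -0.60 and -0.36 on the log2 scale, neither a call. GF held 15.2 CPM and NSC 17.3 CPM, with overlapping intervals, 6.72-fold (6.01 to 7.53) and 5.90-fold (5.28 to 6.61) lower than D0. The order of GF and NSC turned with the scaling, from -0.18 in log2(CPM + 1) to 0.25 with median ratio scaling and 0.57 with TMM scaling. GFP+ D8 was called 2.27-fold higher than NSC (2.01 to 2.57), and 0.99 with a pseudocount of 5. In GFP- D8 the difference from D0 was -0.99, short of a call, and it was called with median ratio scaling (-1.27), TMM scaling (-1.35), the reduced total (-1.07) and a pseudocount of 0.1 (-1.003).

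Hes5, a target that in the developing brain depends closely on Notch, was found in quantity in NSC. It lies at chr4:154960626-154962372. NSC had 1796 counts of it, or 89.3 CPM, against 0 counts in D0, where the floor of 3 counts is 0.0816 CPM. NSC was at least 1094-fold higher against that floor, and the exact 95% lower limit of the ratio was 889. D1 had 1 count and D2 had 0. GFP+ D4 and GFP+ D8 had 7 and 17 counts, or 0.201 and 0.589 CPM, against 0 counts in GFP- D4 and GFP- D8, where the floor is 0.110 and 0.128 CPM. Against the floor GFP+ D4 was at least 1.83-fold higher than GFP- D4 and GFP+ D8 at least 4.61-fold higher than GFP- D8, at levels far below a call. With the counting error of both libraries, the exact 95% lower limits of these ratios were 1.13 and 3.36. Against NSC, GFP+ D8 was 152-fold lower (94.5 to 261), and GF, with 5 counts, was 396-fold lower (169 to 1221). Hes5 was thus detected in the GFP+ fractions, where Notch1 was high, at under 1 CPM.

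The promoter window of Hes5 is given because it holds 2 copies of GTGGGAA, a core sequence bound by RBPJ, searched on both strands. The window lies at chr4:154960673-154960972 on the plus strand of GRCm38.p6, inside the RefSeq span of the gene, and the capitals mark the matches, of which the first is on the opposite strand.
Hes5: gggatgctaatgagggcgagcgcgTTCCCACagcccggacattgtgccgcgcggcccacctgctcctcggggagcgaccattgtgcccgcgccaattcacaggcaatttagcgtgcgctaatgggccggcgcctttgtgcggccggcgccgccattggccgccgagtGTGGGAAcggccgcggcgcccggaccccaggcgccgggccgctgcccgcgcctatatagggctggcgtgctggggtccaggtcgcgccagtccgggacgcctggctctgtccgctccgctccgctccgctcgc

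Of 32851 RefSeq promoter windows of this length, 2097 (6.38%) held the motif and 84 (0.256%) held it at least 2 times. RefSeq windows were matched for 8 of the 10 members, in 9 windows, of which 1 held the motif, and for 37 of 49 other genes of the pathway, in 51 windows, of which 6 held it. Hes1 and Hey1 were not matched. The matches are shown with their flanks, written along the motif, for the Hes and Hey genes and for Lfng, which modifies Notch receptors, to set them beside the Hes5 copies. The other 3 windows with a match, not shown, were those of Psen2 and Aph1a, which encode subunits of gamma-secretase, and of Spen, a nuclear factor. Distances of the matches shown are to the start used for each window. They are 226 and 83 bases before it in Hes5, 109 in Lfng, 207 and 4 in Hey2 and 180 in Hes7. The Hes5 and Hes7 matches lie inside the RefSeq spans of those genes, which for Hes7 is chr11:69118906-69124054. A match is a description of these letters and not a binding site shown in these cells.
Hes5, chr4:154960697-154960703: tccgggctGTGGGAAcgcgctcg
Hes5, chr4:154960840-154960846: cgccgagtGTGGGAAcggccgcg
Lfng, chr5:140607232-140607238: tatcccacGTGGGAAggagagat
Hey2, chr10:30842984-30842990: gcagaggcGTGGGAAtgccaccg
Hey2, chr10:30842781-30842787: gctgcagcGTGGGAAagaacctc
Hes7, chr11:69120273-69120279: ccccaaatGTGGGAAgtgagggg

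Hey1, a repressor of the Hey family that Notch activates in vessels and brain, lies at chr3:8663359-8667038. NSC held 15.5 CPM of it, against 1.80 CPM in D0, a ratio of 8.61 (6.59 to 11.4). The sorted VCR libraries held 3.33 and 1.45 CPM in GFP+ D4 and GFP+ D8, against 1.76 and 1.32 CPM in GFP- D4 and GFP- D8. The D4 ratio between the fractions was 1.90 (1.35 to 2.72) and the D8 ratio 1.10 (0.677 to 1.81), which is within counting error. GF was lowest of all libraries at 0.316 CPM, from 7 counts, 49.0-fold lower than NSC (23.5 to 123). Hey1 was below 5 CPM in each library other than NSC.

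Over the 10 members the median difference from D0 was -0.01 in D1 and 0.02 in D2, beside 0.04 and 0.06 over all genes tested. These medians, like those below, include genes under 5 CPM, whose differences the pseudocount shrinks, while the genes tested reach 5 CPM. The members tested in D1 differed by -0.04 (Notch1), -0.73 (Notch2), -2.17 (Jag1) and -1.59 (Hes1). Those tested in D2 differed by 0.09 (Notch1), -0.81 (Notch2), 0.64 (Notch3), -2.10 (Jag1) and -1.82 (Hes1). In D1, 0 members were called higher than D0, where 6.63% of all genes tested were, and 2 lower (5.92%), of 4 tested. In D2, 0 were higher (6.74%) and 2 lower (6.04%) of 5 tested. The lower genes were Jag1 and Hes1 on both days, and Jag1 was tested there through D0 alone.

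In GFP+ D4, 3 of 5 members tested were higher than D0 (38.5% of all genes) and 1 lower (11.3%). With median ratio or TMM scaling this became 1 higher and 1 lower. In GFP+ D8, 1 of 5 was higher (35.7%) and 2 lower (13.4%). The median difference over all 10 members was 0.41 at D4 and 0.46 at D8 beside 0.66 and 0.57 over all genes tested, and the order turned with the setting. The members' median lay above that of all genes with median ratio scaling, at 0.21 beside 0.09 (D4) and 0.16 beside 0.11 (D8), and with TMM scaling, at 0.23 beside 0.10 and 0.13 beside 0.06. It also did with a pseudocount of 0.1, at 1.07 beside 0.68 and 0.70 beside 0.59. The median of the 10 includes members below 5 CPM, whose differences the pseudocount shrinks, while the genes tested reach 5 CPM. In GFP- D4, 1 of 5 was higher (11.0%) and 2 lower (5.28%), and in GFP- D8 1 of 5 was higher (16.4%) and 1 lower (6.12%), or 1 and 2 with either scaling.

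Between the fractions at D4, 2 of 5 members tested, Notch1 and Jag1, were higher in GFP+ (25.4%) and 0 lower (11.5%). At D8, 1 of 5, Notch1, was higher (20.3%) and 1, Notch3, lower (12.2%), or 1 and 2 with median ratio or TMM scaling. The medians over the 10 members were 0.36 at D4 and 0.05 at D8, beside 0.34 and 0.22 over all genes tested. Notch1 was the member called in the same direction on both days.

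In NSC, 7 of 9 members tested were higher than D0 (49.9%) and 1 lower (17.4%), with a median over the 10 of 3.10 beside 1.00 over all genes tested. Dll1, Dll3, Hes5 and Hey1 reached 5 CPM in NSC alone of all libraries, and Notch3 did not reach it in D0. These members, all called higher, were therefore tested against D0 only through NSC, the library in which they were high. With median ratio or TMM scaling 6 were higher and 1 lower. GFP+ D8 against NSC had 1 of 9 higher (17.8%) and 6 lower (33.9%), with a median of -2.87 beside -0.36. Among the lower ones, Dll1, Dll3, Jag1, Hes5 and Hey1 were again tested through NSC alone. Notch1 and Notch2 were the 2 tested members without a call there, at 0.28 and -0.22, and so stood near their NSC level. Notch3, the ligands Dll1, Dll3 and Jag1 and the targets Hes5 and Hey1 stood far below theirs. The target Hes1 was the member called higher than NSC, at 1.14.

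In GF, 3 of 5 members tested, the 3 receptors, were higher than D0 (32.1%) and 1, Hes1, lower (16.0%), or 4 and 1 with either scaling. GF against NSC had 1 of 9 higher (21.2%) and 6 lower (42.4%), or 1 and 5 with median ratio scaling and 1 and 4 with TMM scaling. Dll1, Dll3, Hes5 and Hey1 were tested there through NSC alone. GF against GFP+ D8 had 3 of 5 higher (21.5%) and 2 lower (28.2%), or 4 and 1 with median ratio scaling and 4 and 2 with TMM scaling. Notch2, Notch3 and Jag1 were the members higher in GF than in GFP+ D8, while Notch1 was 2.74-fold lower (2.59 to 2.91) and Hes1 2.59-fold lower (2.29 to 2.93). Jag1 was tested there through GF alone, as was Notch3 in GF against D0. The shares called are read beside the background given with them, and nothing particular to the 10 genes was tested.

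**Figure D3:**
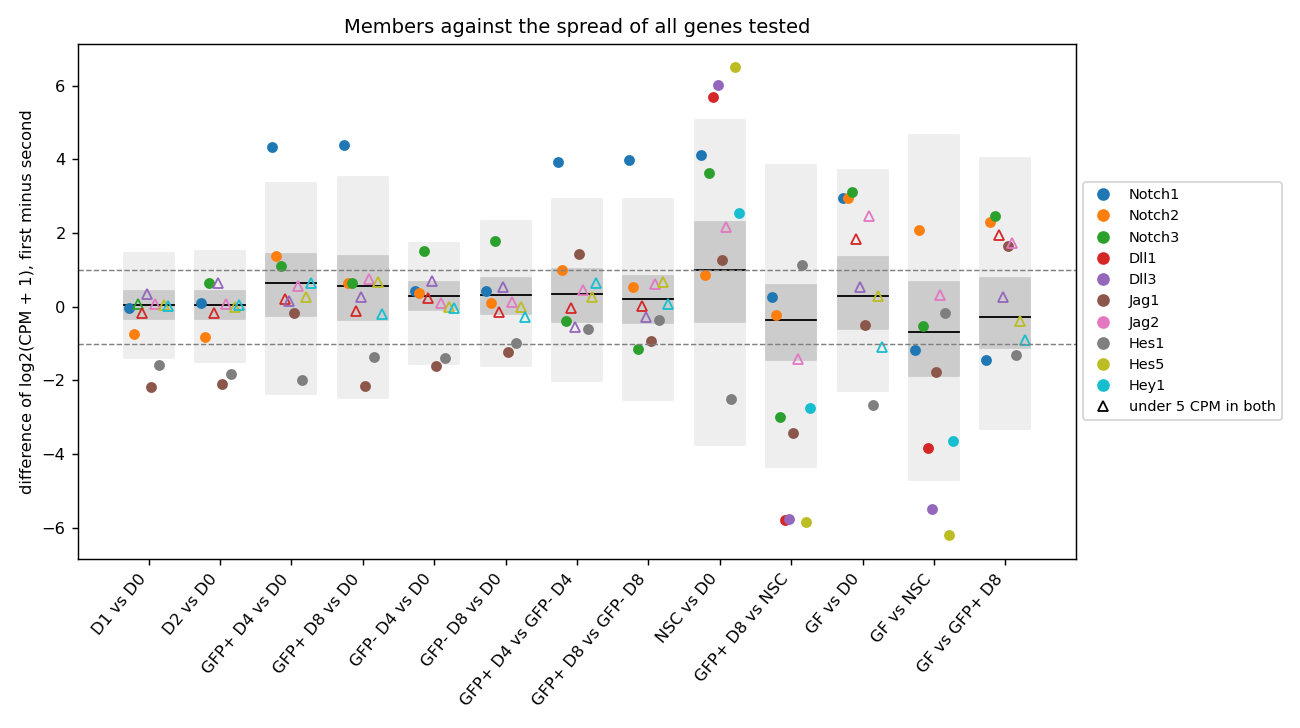
Difference in log2(CPM + 1) of the 10 members in each of the 13 comparisons, with the first-named library minus the second; light and dark bands hold the middle 95% and 50% of all genes tested, the black line is their median and dashed lines mark 2-fold. Notch1 lies above the light band in GFP+ D4 and GFP+ D8 against both D0 and GFP-, and Jag1 and Hes1 lie below it in D1 and D2.

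Heyl, the third Hey family gene and a Notch target in several tissues, had larger CPM ratios between the fractions than Notch1. It had 22.1 and 15.3 CPM in GFP+ D4 and GFP+ D8, against 0.256 and 0.383 CPM in GFP- D4 and GFP- D8, with ratios of 86.3 (41.7 to 215) and 40.0 (20.9 to 88.0). D0 had 3.78 CPM, D1 0.297 and D2 0.274 CPM, so the GFP+ libraries lay above D0 and the GFP- libraries below it, the GFP- ones at levels too low for a call. GF held 0.677 CPM and NSC 25.5 CPM. Nrarp, a target whose protein dampens Notch signalling, had 4.28 and 4.99 CPM in GFP+ D4 and GFP+ D8, against 0.293 and 0.128 CPM in GFP- D4 and GFP- D8, just below the level for a call. Nrarp was singled out for the fractions after its values were seen. In NSC it had 32.3 CPM, against 0.218 CPM in D0. Heyl and Nrarp come from a list of 7 other targets and Hes/Hey family genes, of which 2 were tested between the fractions. On each day 1 of the 2, Heyl, was higher in GFP+ (25.4% of all genes at D4 and 20.3% at D8). On each day 0 were lower (11.5% and 12.2%). The medians over the 7 were 0.14 at D4 and 0.03 at D8, beside 0.34 and 0.22 over all genes tested.

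Other genes of the pathway were counted from lists of 49 genes, all of which were in the table, and the share of all genes tested is given beside each count. Between the fractions at D4, 10 of 35 tested were higher in GFP+ (25.4% of all genes) and 1 lower (11.5%), and at D8 8 of 35 were higher (20.3%) and 1 lower (12.2%). The medians over all 49 were 0.38 and 0.14, beside 0.34 and 0.22 over all genes tested. Adam10, the protease that makes the first activating cut in Notch receptors, had 445 and 538 CPM in GFP+ D4 and GFP+ D8, against 100.1 and 154 CPM in GFP- D4 and GFP- D8. Lfng, the Fringe enzyme that adds sugar to Notch receptors and alters their choice of ligand, had 9.59 CPM in GFP+ D8, against 1.15 CPM in GFP- D8. Maml3, a Mastermind coactivator, had 9.39 CPM in GFP+ D4, against 2.11 CPM in GFP- D4. Dtx3, a Deltex family gene, had 149 CPM in GFP+ D8, against 47.9 CPM in GFP- D8.

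Against D0, 0 of 33 other pathway genes tested were higher in D1 (6.63% of all genes) and 2 lower (5.92%), and in D2 1 was higher (6.74%) and 3 lower (6.04%). Numbl, a Numb family gene whose product restrains Notch, fell to 14.9 CPM in D1, against 41.7 CPM in D0. Pofut1, which adds the fucose that Notch receptors need, fell to 12.6 CPM in D1, against 26.8 CPM in D0. In GFP+ D4, 13 of 36 were higher (38.5%) and 2 lower (11.3%), and in GFP+ D8 13 of 36 were higher (35.7%) and 2 lower (13.4%), with medians over the 49 of 0.65 and 0.56, beside 0.66 and 0.57 over all genes tested. In GFP- D4 3 of 33 were higher (11.0%) and 1 lower (5.28%), and in GFP- D8 5 of 33 were higher (16.4%) and 1 lower (6.12%), with medians over the 49 of 0.11 and 0.29, beside 0.30 and 0.31 over all genes tested. These counts lay near the shares over all genes or below them. Dlk1, a noncanonical ligand gene of mesenchymal progenitors, was at 0.503 and 0.364 CPM in GFP+ D4 and GFP+ D8, against 7.62 CPM in D0.

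In NSC, 28 of 46 other pathway genes tested were higher than in D0 (49.9% of all genes) and 3 lower (17.4%), with a median over the 49 of 1.45 beside 1.00 over all genes tested. Some of them, such as Mfng, Dtx1 and Cntn1, were tested only through NSC. Mfng, a second Fringe gene, had 110.5 CPM in NSC, against 0.133 CPM in D0. Dtx1, a Deltex gene and Notch target, had 75.6 CPM in NSC, against 0.299 CPM in D0. Cntn1, a neuronal contactin described as a ligand of Notch, had 116 CPM in NSC, against 1.58 CPM in D0. In GF, 17 of 35 tested were higher than D0 (32.1%) and 1 lower (16.0%), with a median over the 49 of 0.53 beside 0.30 over all genes tested. Dlk1 had 308 CPM in GF, against 7.62 CPM in D0. Rbpj, the DNA-binding core of the pathway, had 362 CPM in GF, against 33.5 CPM in D0. Maml1 had 64.0 CPM in GF, against 8.14 CPM in D0, and Mib2, a ligase that promotes uptake of ligands, had 68.2 CPM in GF, against 11.5 CPM in D0. Against GFP+ D8, GF had 9 of 38 higher (21.5%) and 10 lower (28.2%), among them Heyl at 0.677 CPM in GF and 15.3 CPM in GFP+ D8.

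**Figure D4:**
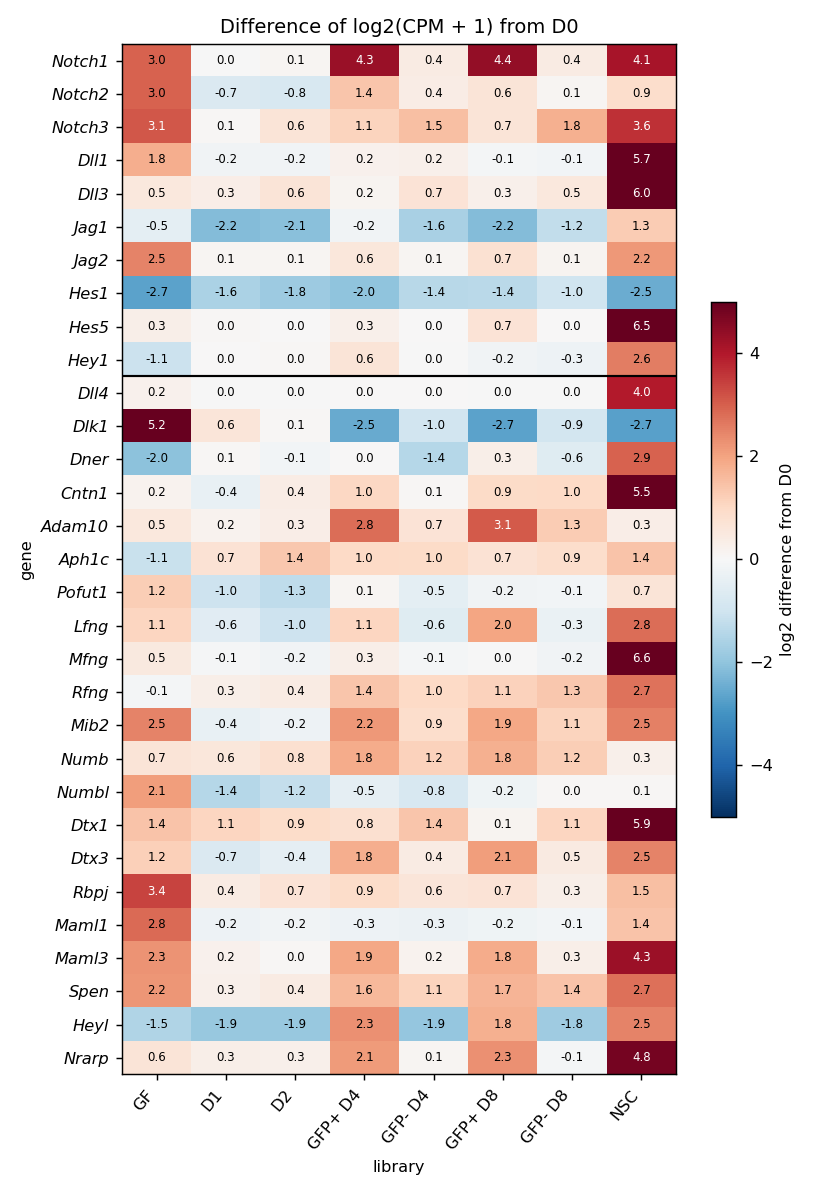
Difference in log2(CPM + 1) from D0 in the other 8 libraries for the 10 members (above the line) and other pathway genes named by rule in any comparison; red is higher and blue lower than D0, with colours saturating at 5 in either direction and the value printed in each cell. GFP+ D4 and GFP+ D8 share high Notch1, Adam10 and Heyl, while Dll1, Dll3, Hes5, Mfng and Dtx1 are high in NSC and differ from D0 by less than 1 in the GFP+ columns, where Dtx1 reaches 0.78 at D4 and Hes5 0.67 at D8.

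The genes whose course over the 9 libraries was most like that of each member were taken by Pearson correlation of log2(CPM + 1) among 10793 genes that reached 20 CPM in at least 1 library. All libraries but NSC come from the embryonic fibroblasts and 6 share the GFP gate, and the values carry no test. Closest to Notch1 were Tjp1, a tight junction scaffold gene (r = 0.993), Kif3c, a kinesin gene (0.990), and Hip1, an endocytic adaptor gene (0.990). Tjp1 had 170.0 and 179 CPM in GFP+ D4 and GFP+ D8, against 21.6 and 25.4 CPM in GFP- D4 and GFP- D8. Closest to Notch2 were Sympk, Ubr4 and Ski (0.986, 0.981 and 0.979), and closest to Notch3 were Pfkm, Abhd8 and Shisa2 (0.991, 0.973 and 0.972).

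Jag1 was matched most closely by Eef2k, a kinase gene of translation control, at 0.973, and Hes1 by Prnp, the prion protein gene, at 0.911, the lowest leading value of the 10 members. Eef2k had 35.7 and 14.1 CPM in GFP+ D4 and GFP+ D8, against 16.4 and 13.4 CPM in GFP- D4 and GFP- D8. The likeness of Hes5 to Kcnh4 (0.999), of Dll1 to Ccdc88c (0.994) and of Dll3 to Slc6a13 (0.997) was lower when the NSC library was left out. Without NSC these values were 0.937, 0.951 and 0.837 over 8 libraries, while Notch1 and Tjp1 stood at 0.998. Kcnh4, Ccdc88c and Slc6a13 reached 20 CPM in NSC alone, at 23.2, 32.5 and 21.0 CPM, and were at 1.99 CPM or less elsewhere. NSC thus holds most of the range of these genes. The values without it, 0.837 or more, compare genes at very low levels. For Hey1 the closest gene was Akap9 (0.984) and for Jag2 it was Zcchc14 (0.997).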

How the data were processed

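RNA-seq of 9 libraries was analysed, 1 per group, with groups taken from sample titles. The series also has 4 ATAC-seq samples, not analysed here. The values used are estimated counts per gene symbol deposited by the authors in 1 table. The table is named as TPM, but its columns sum to between 20104940 and 36751356 and hold fractional values, so they were read as estimated counts. Per the submitters' processing notes the series used kallisto 0.43.1, with the builds GRCm38 and mm10. Not given in the sources used here are the annotation, the step from transcripts to genes and the use of strand, so reads shared with overlapping genes cannot be told apart.

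From these counts, CPM was computed on the column total. Counts were rounded to whole numbers for intervals. Ratio intervals are exact conditional binomial intervals and level intervals exact Poisson intervals, both at 95%. Calls need a difference of 1 in log2(CPM + 1), which shrinks differences at low levels, and 5 CPM in at least 1 library. Against a library with 0 counts a bound was computed with a floor of 3 counts in that library. With 1 library a group no test across genes was run. The calls were tested on simulated counts with counting error only and with planted changes larger than the 2-fold mark. Such counts hold no spread between cultures, so they cannot tell how often a call would repeat.

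The 10 members, the lists of pathway genes and markers, and the comparisons were chosen with earlier results of these data known. Named were all members, up to 4 other pathway genes with the largest called difference per comparison, and the 3 genes most correlated with each member, without predicted genes and pseudogenes. A gene named by the rule in one comparison may be given in others, and a gene that the rule would name is not reported here. Marker lists were fixed for fibroblasts, neural stem cells, neural crest and Schwann cells, endothelium, mural cells, macrophages and neurons.

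Other settings were pseudocounts of 0.1 and 5, no floor or 1 CPM, median ratio factors (DESeq2 1.42.0), TMM factors (edgeR 4.0.16), and a total that leaves out mitochondrial genes, ribosomal protein genes and the 20 most abundant genes. The 2 comparisons of D8 with D4 within a fraction were added after seeing the data. Python 3.11.15, numpy 2.4.6, pandas 2.3.3, scipy 1.17.1 and R 4.3.3 were used. Positions and promoters are from RefSeq on GRCm38.p6.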

Additional observations from a re-analysis of the deposited data

Results flagged for a closer look

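Jag1 stood in opposite order between the sorted fractions on the 2 days. The GFP+ minus GFP- difference in log2(CPM + 1) was 1.44 at D4, from 15.4 CPM in GFP+ and 5.05 CPM in GFP-, and -0.92 at D8, from 3.12 CPM in GFP+ and 6.81 CPM in GFP-. Each fraction had 1 library a day, so the difference between the days was not tested.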

How the results depend on the processing

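No paired analysis was possible because each group has 1 library, and no library could be left out. Over the 10 members, 15 comparisons and 7 other settings, 1009 of 1050 values kept their side of the 2-fold mark, 26 gained a call, 15 lost one and 0 reversed a called value. Of the 1009, 995 kept their sign and 14 uncalled values changed it, all of them under a scaling. Among these were Notch2 in NSC against D0, at 0.87 and -0.14 with TMM scaling, and Notch3 in GF against NSC, at -0.52 and 0.27 with TMM scaling. The count of members called changed by over 1.5 times in 4 of the 13 main comparisons. It was 4 for GFP+ D4 against D0 and 2 with median ratio scaling and 2 with TMM scaling. For GFP- D8 against D0 it was 2 and became 1 with a pseudocount of 5, as it did for GFP+ D8 against GFP- D8. For GF against D0 it was 4 and became 7 with no filter and 7 with a floor of 1 CPM, since Dll1, Jag2 and Hey1 were then tested. Median ratio scaling moved the median of all genes tested in GFP+ D4 against D0 to 0.09, and TMM scaling to 0.10, beside 0.66, and in NSC against D0 to 0.48 and -0.003, beside 1.00. Notch1 in GF against NSC was no longer called with median ratio scaling (-0.72) or TMM scaling (-0.37), Jag1 in GF against NSC with TMM scaling (-0.99), and Hes1 in GF against GFP+ D8 with median ratio scaling (-0.94). Calls of genes near 5 CPM depend on the floor, and Dll1, Dll3, Jag2 and Hes5 rest on under 40 counts in most libraries.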
